A study of Homo sapiens with 6 samples.

Results

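Transcripts of A673 cells treated for 6 h with 200 nM THZ1 were compared with those of A673 cells treated for 6 h with the vehicle, DMSO. A673 is an established Ewing sarcoma cell line, and THZ1 is a covalent inhibitor of the kinase CDK7. RNA was sequenced in the study from 6 libraries, 1 for each of 2 cell lines (A673 and SKNMC) at each of DMSO, 50 nM THZ1 and 200 nM THZ1. The genes described are the 11077 with more than 1 FPKM in A673 DMSO, out of 27420 listed protein-coding and lincRNA genes. FPKM is a count of fragments divided by transcript length and by the number of fragments mapped in the library, so that levels of different genes can be compared. The gene nearest to this limit on the inside was MEIS3, at 1.0002 FPKM, and the nearest on the outside was FOXD3, at 0.998 FPKM. Both conditions rest on 1 library of 1 line, so no difference below has a replicate error, an n above 1 or a p-value. Changes are log2 ratios of FPKM with 1 added to each value, so that a change at a low level comes out smaller than it is. A gene is said to have fallen or risen where it changed at least 2-fold, and to have held where it changed by less than 1.5-fold.

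CDK7 is the catalytic subunit of a kinase within the general transcription factor TFIIH. It phosphorylates the tail of RNA polymerase II as a gene starts to be transcribed, and it activates other cyclin-dependent kinases of the cell cycle and of transcription. When transcription is impeded, short-lived transcripts are the first to disappear and long-lived ones persist. Ewing sarcoma is driven by a fusion of EWSR1 with an ETS factor gene, most often FLI1, and its cells carry a characteristic set of highly transcribed regulators.

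The line showed its label. All 8 Ewing sarcoma markers examined (CD99, NKX2-2, NR0B1, STEAP1, FLI1, PRKCB, LIPI and CCND1) were above 1 FPKM in both libraries, and their summed level was 1624 FPKM in DMSO and 1520 FPKM at 200 nM. The sum rests mostly on CD99 and CCND1, at 504.4 and 710.6 FPKM in DMSO, and does not show single markers. CD99 and PRKCB were higher at 200 nM and the others lower, NR0B1, FLI1 and NKX2-2 by at least 2-fold. None of 21 markers of leukocytes, epithelium, endothelium, muscle, fibroblasts, melanocytes or neuroblasts was above 1 FPKM in either library, with summed levels of 1.26 and 1.01 FPKM. The listed FPKM at 200 nM summed to 100.5% of the DMSO sum. FPKM holds no read counts and the depth is unknown. The most frequent ratio between low values of the 2 libraries was 0.94, DMSO over 200 nM, but only 1.53% of 3336 low genes sat at that ratio. FPKM is a share of a library, so fewer cells and less RNA per cell cannot be told apart, and an even loss of all transcripts would not be seen.

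At 200 nM, 2799 of the 11077 genes fell (25.3%), and 521 of these fell at least 4-fold (4.70%). A further 1751 genes were between 1.5-fold and 2-fold lower. The level held for 6339 genes (57.2%), which were split nearly evenly between 3249 below and 3090 above the DMSO value. Only 14 genes rose (0.126%), and 174 more were between 1.5-fold and 2-fold higher. The median log2 fold change was -0.40, with quartiles of -1.01 and 0.08. For 992 genes (8.96%) the level at 200 nM was at or below 1 FPKM, and 3 of them were listed at 0. The 100 most abundant genes of each library, chosen in each on its own, took 23.03% of the listed FPKM in DMSO and 29.0% at 200 nM. When the libraries were divided by the 75th percentile of the 11077 genes, the median log2 fold change shifted by 0.32. When they were divided by the ribosomal protein genes' median, it shifted by -0.29. Single genes shifted by other amounts, since 1 is added to each FPKM. Under these scalings 1915 and 3849 genes fell, and 112 and 5 rose.

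**Figure D1:**
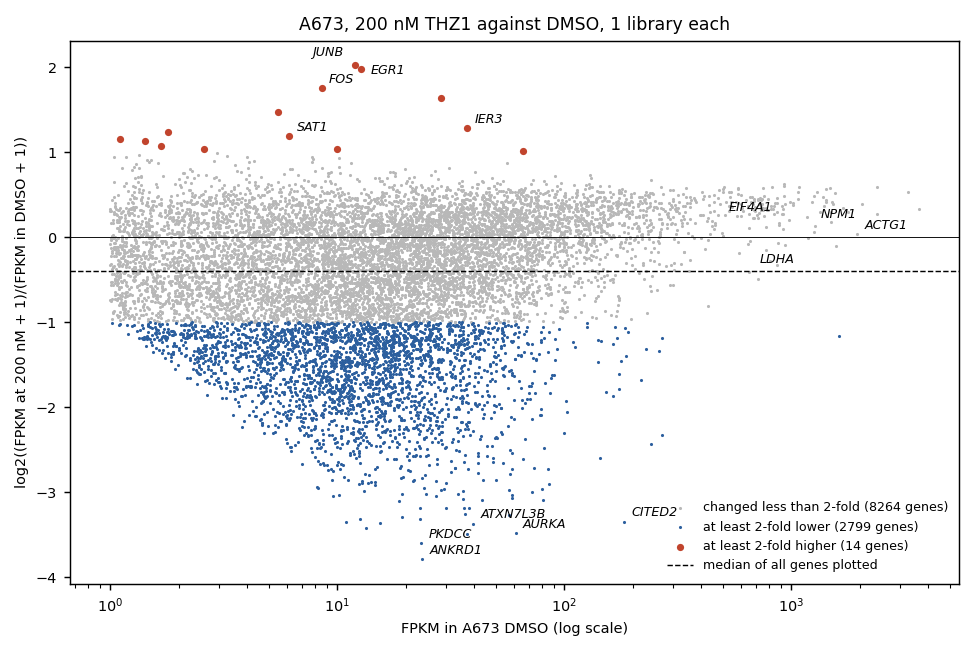
The horizontal axis is the FPKM of each of the 11077 genes in A673 DMSO on a log scale and the vertical axis is the log2 fold change at 200 nM THZ1, 1 library each. Points are genes, blue for the 2799 that fell, red for the 14 that rose and grey for the rest. The dashed line is the median of -0.40. The falls crowd below 100 FPKM, whereas the most abundant genes lie just above 0.

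Of the 12 genes with the steepest fall, among 6656 genes above 10 FPKM in DMSO and not listed at 0 at 200 nM, 11 are described, and these fell between 9.94-fold and 13.8-fold. ANKRD1, a target gene of the co-activator YAP, went from 23.7 FPKM in DMSO to 2.79 at 50 nM and then 0.787 at 200 nM, which is -3.79 on the log2 scale at the high dose. AURKA, the kinase that matures the centrosomes before mitosis, went from 61.2 to 17.7 and 4.56 FPKM (-3.48). TNFRSF1A, the main receptor for tumour necrosis factor, went from 37.2 to 4.66 and 2.39 FPKM (-3.49). In each of these genes the 200 nM library was the lowest of the 3 and the 50 nM library lay between. CITED2, which binds the acetyltransferases CBP and p300, was the most abundant of the 11 and dropped from 182.7 to 57.1 and 17.0 FPKM (-3.35). ZC3H4, a zinc finger protein that restrains transcription of non-coding RNA, went from 12.6 to 0.455 and 0.366 FPKM (-3.32). ZBED5, a gene derived from a transposase, went from 23.2 to 1.56 and 1.44 FPKM (-3.31). The last 2 genes had reached nearly their lowest value at 50 nM, unlike AURKA and CITED2, which lost a further part of their transcript between the doses. The remaining 5 were PKDCC, a secreted tyrosine kinase, with -3.60, WDR89 with -3.42, ATXN7L3B with -3.37, TMEM177, a mitochondrial membrane protein, with -3.36, and KRTAP4-9, a keratin-associated protein, with -3.35. KRTAP4-9 has near-identical paralogs and its level is uncertain.

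SKNMC, a second Ewing sarcoma line with a DMSO library of its own, gives an independent reading of these genes. All Ewing sarcoma markers examined were above 1 FPKM in SKNMC DMSO. Of the markers of other cell types, the leukocyte gene PTPRC and the fibroblast genes DCN and LUM were above it there, at 10.2, 30.9 and 23.5 FPKM. The rest were below 1 FPKM. The reason for this difference from A673 was not tested. In SKNMC at 200 nM, 27.3% of 11896 genes above 1 FPKM in its DMSO library were at least 2-fold lower, and 10 of the 11 were among them. AURKA went from 50.9 FPKM in DMSO to 7.92 at 200 nM (-2.54), TNFRSF1A from 35.4 to 3.14 (-3.14) and CITED2 from 207.6 to 33.9 (-2.58). The exception was ANKRD1, which was low in SKNMC from the start, at 1.08 FPKM in DMSO and 0.0442 at 200 nM (-0.995 with 1 added).

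**Figure D2:**
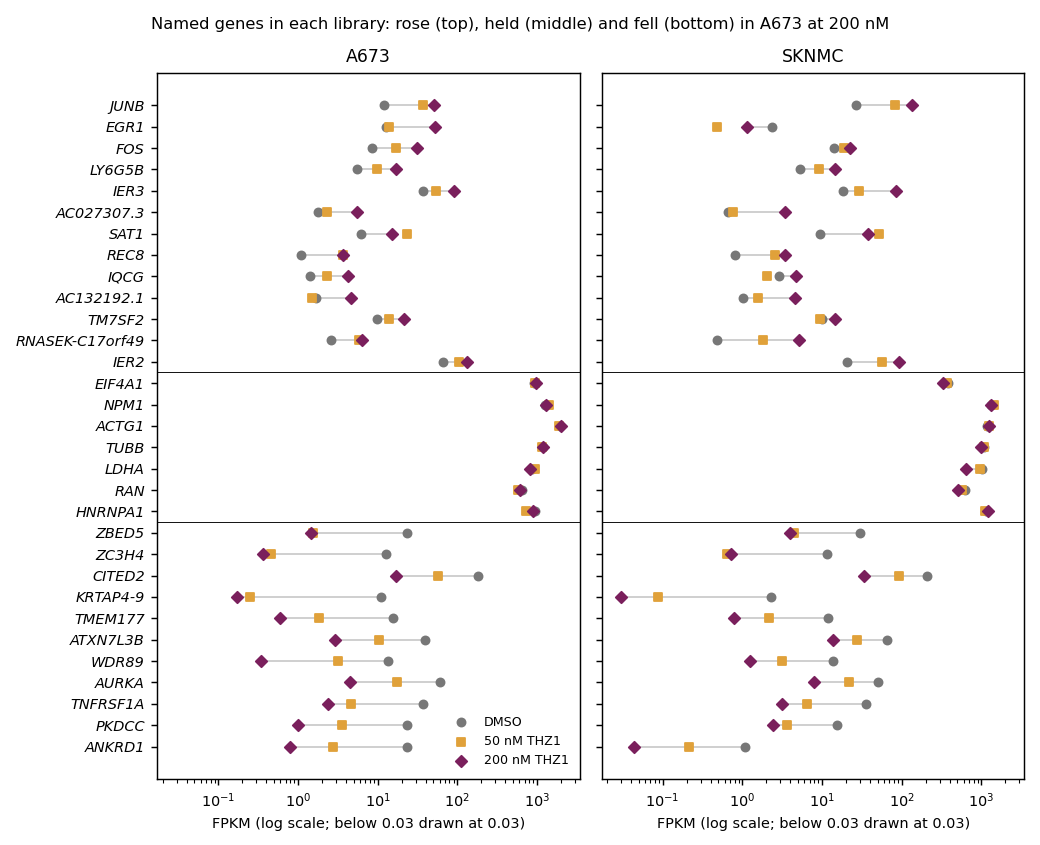
Each row is a gene and each point its FPKM in 1 library on a log scale, for A673 on the left and SKNMC on the right; grey circles are DMSO, orange squares 50 nM and purple diamonds 200 nM THZ1. The top block holds 13 genes that rose, the middle block 7 of the most abundant genes with almost no change and the bottom block 11 of those that fell most in A673 at 200 nM. The 11 of the bottom block move left in both lines, and EGR1 moves right in A673 and left in SKNMC.

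Of the 14 genes that rose, 13 are described by name and 1 lincRNA gene is not. Their leading members belonged to the immediate early genes, which are transcribed within minutes of a stimulus and whose transcripts are short-lived. JUNB, a subunit of the AP-1 transcription factor, went from 12.02 FPKM in DMSO to 37.2 at 50 nM and 51.9 at 200 nM (2.02). FOS, the partner of the JUN proteins in AP-1, went from 8.54 to 17.1 and 31.1 FPKM (1.75). EGR1, a zinc finger transcription factor, was at 12.75 and 13.8 FPKM in DMSO and at 50 nM and reached 53.4 at 200 nM (1.98). JUNB and FOS thus climbed over both doses, while EGR1 stayed near its DMSO level at 50 nM. IER3, an early gene tied to survival signalling, went from 37.3 to 53.8 and 92.3 FPKM (1.28), and IER2, a nuclear early gene, from 65.6 to 105.9 and 133.8 FPKM (1.02). Outside this group, SAT1, which acetylates spermidine and spermine for their breakdown, had its highest level at 50 nM, with 6.16, 23.2 and 15.3 FPKM (1.19). TM7SF2, a sterol reductase of cholesterol synthesis, went from 9.98 to 13.9 and 21.6 FPKM (1.04). LY6G5B rose by 1.48, AC027307.3 by 1.24, REC8, a cohesin subunit of meiosis, by 1.15, IQCG by 1.13, AC132192.1 by 1.07 and RNASEK-C17orf49, a read-through of neighbouring genes, by 1.04 on the log2 scale. Of the 13 genes, 5 were under 5 FPKM in DMSO. The levels of JUNB, REC8, IQCG, AC132192.1 and RNASEK-C17orf49, and of WDR89 and ZC3H4 among the falling genes, are uncertain because a listed gene overlaps them on the opposite strand and strand-aware counting is not given in the sources used here. The same holds for BAD, BCL2L1, BIRC5, BRD2, CCND1, CDK4, CTNNB1, DDIT3, DIABLO, DNAJB1, E2F5, EWSR1, EXOSC3, FANCA, FZD4, GLI2, HSP90AA1, JAK1, MDM2, MED17, MED24, MEPCE, NUP62, PDIA3, PRPF4, PTMA, RPL10, TGFB1, TYMS, ZNF146 and ZNF428 wherever they are named.

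In SKNMC at 200 nM, 9 of these 13 genes were at least 2-fold higher, and 0.462% of the 11896 genes above 1 FPKM in SKNMC DMSO rose. The 9 include AC027307.3, REC8 and RNASEK-C17orf49, which lie outside those 11896 genes, at 0.667, 0.798 and 0.476 FPKM in SKNMC DMSO. JUNB went there from 27.1 to 134.6 FPKM (2.27), IER3 from 18.4 to 85.3 (2.16), IER2 from 20.5 to 91.5 (2.10) and SAT1 from 9.42 to 37.5 (1.89). FOS was at 13.98 and 22.8 FPKM in SKNMC (0.67). EGR1 was at 2.38 FPKM in SKNMC DMSO and 1.13 at 200 nM (-0.67), the opposite sign to A673.

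Other immediate early genes went the other way. Of 25 members of this list above 1 FPKM in DMSO, 12 fell (48%, or 28% when scaled by the 75th percentile), 2 held, 5 rose and 6 lay between, with a median of -0.88. CTGF, a matrix-associated growth factor and YAP target, went from 241.2 to 112.8 and 43.8 FPKM (-2.43), and CYR61, its relative, from 190.9 to 124.3 and 87.8 FPKM (-1.11). FOSL2, another FOS family member, went from 12.1 to 4.44 and 1.17 FPKM (-2.59). Hence AP-1 subunit genes were found at both ends of the distribution. JUN, the founding member of that family, which was picked after its values were seen, went from 31.5 to 20.5 and 11.98 FPKM (-1.32). MYC, a growth-promoting transcription factor, was at 101.2, 90.9 and 54.5 FPKM (-0.88), short of a 2-fold change. To let the start regions of the AP-1 and EGR1 genes be compared, the 120 bases before the annotated start of 3 genes that rose and of JUN, which fell, are given 5′ to 3′ on the gene's strand from RefSeq (GRCh38.p14), with TATAAA and CArG boxes (the site of serum response factor) in capitals, both searched on both strands.
JUNB, chr19:12791366-12791485, plus strand: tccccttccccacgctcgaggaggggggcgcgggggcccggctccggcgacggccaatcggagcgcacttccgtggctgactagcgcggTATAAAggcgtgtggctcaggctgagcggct
FOS, chr14:75278708-75278827, plus strand: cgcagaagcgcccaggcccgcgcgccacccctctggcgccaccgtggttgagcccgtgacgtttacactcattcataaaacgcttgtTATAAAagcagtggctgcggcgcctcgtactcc
EGR1, chr5:138465359-138465478, plus strand: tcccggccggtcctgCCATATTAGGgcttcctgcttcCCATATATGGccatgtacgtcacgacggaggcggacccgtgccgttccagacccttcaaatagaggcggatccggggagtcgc
JUN, chr1:58784048-58784167, minus strand: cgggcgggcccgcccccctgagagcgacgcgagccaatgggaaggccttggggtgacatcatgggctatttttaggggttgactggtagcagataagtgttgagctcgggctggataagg
TATAAA began 31 bases before the start of JUNB and 33 bases before that of FOS, and CArG boxes began 105 and 83 bases before the start of EGR1. In windows from 250 bases before to 50 bases after the start, TATAAA occurred in 12% of all 27305 RefSeq promoters, in 5.06% of the 8386 promoters matched to the genes above 1 FPKM, in 4.58% of those of genes that fell and in 5.20% of those of genes that held. CArG boxes occurred in 1.29%, 0.966%, 0.972% and 1.01%. The ETS-type sequence CCGGAAG occurred in 10.7%, 21.1%, 23% and 20.3%, the CRE TGACGTCA in 1.98%, 3.53%, 4.16% and 3.21%, and the GC box GGGCGG in 44.6%, 71.6%, 70.9% and 72.7%. The repeat GGAAGGAA, the kind of sequence bound by EWSR1-FLI1, occurred in 3.58%, 3.27%, 3.56% and 3.31%, and CCAAT in 35.7%, 37.3%, 38.7% and 36.8%. Genes that fell and genes that held carried these letters in similar shares of their promoters. Of the genes that rose, 10 had a promoter in the table, and 2 of these held TATAAA (20%) and 1 a CArG box (10%), so that these shares rest on the JUNB, FOS and EGR1 promoters shown.

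Of the 8 most abundant genes with a log2 fold change within 0.1 of zero, 7 are described, and these lay between 645.9 and 1948 FPKM in DMSO. They were ACTG1, a cytoskeletal actin (1948 FPKM in DMSO, 1897 at 50 nM and 1996 at 200 nM), NPM1, a nucleolar chaperone (1252, 1413 and 1302), TUBB, a tubulin (1187, 1145 and 1178), HNRNPA1, a splicing factor (938.1, 741.1 and 882.4), EIF4A1, the helicase of translation initiation (918.4, 956.2 and 980.7), LDHA, lactate dehydrogenase (868.7, 937.4 and 830.5), and RAN, the GTPase of nuclear transport (645.9, 585.5 and 609.5). Their log2 fold changes ran from -0.09 to 0.09. In SKNMC at 200 nM the same 7 genes ran from -0.70 for LDHA to 0.06.

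The genes of 54 functional lists were then described by the number that fell, beside 25.3% and a median of -0.40 for all 11077 genes. Among lists with at least 8 members above 1 FPKM, the medians ran from -1.41 for feedback inhibitors of signalling to 0.50 for clustered histone genes. No list was tested. Shares moved with the scaling also for all genes, of which 17.3% fell when scaled by the 75th percentile and 34.7% when scaled to the ribosomal protein genes, and 31.1% fell with a pseudocount of 0.1. Where one of these settings moved the share of a list named below by more than 1.5 times, that value is given beside it for lists with more than 20% of members fallen, and for the clock and the nuclear pore genes.

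**Figure D3:**
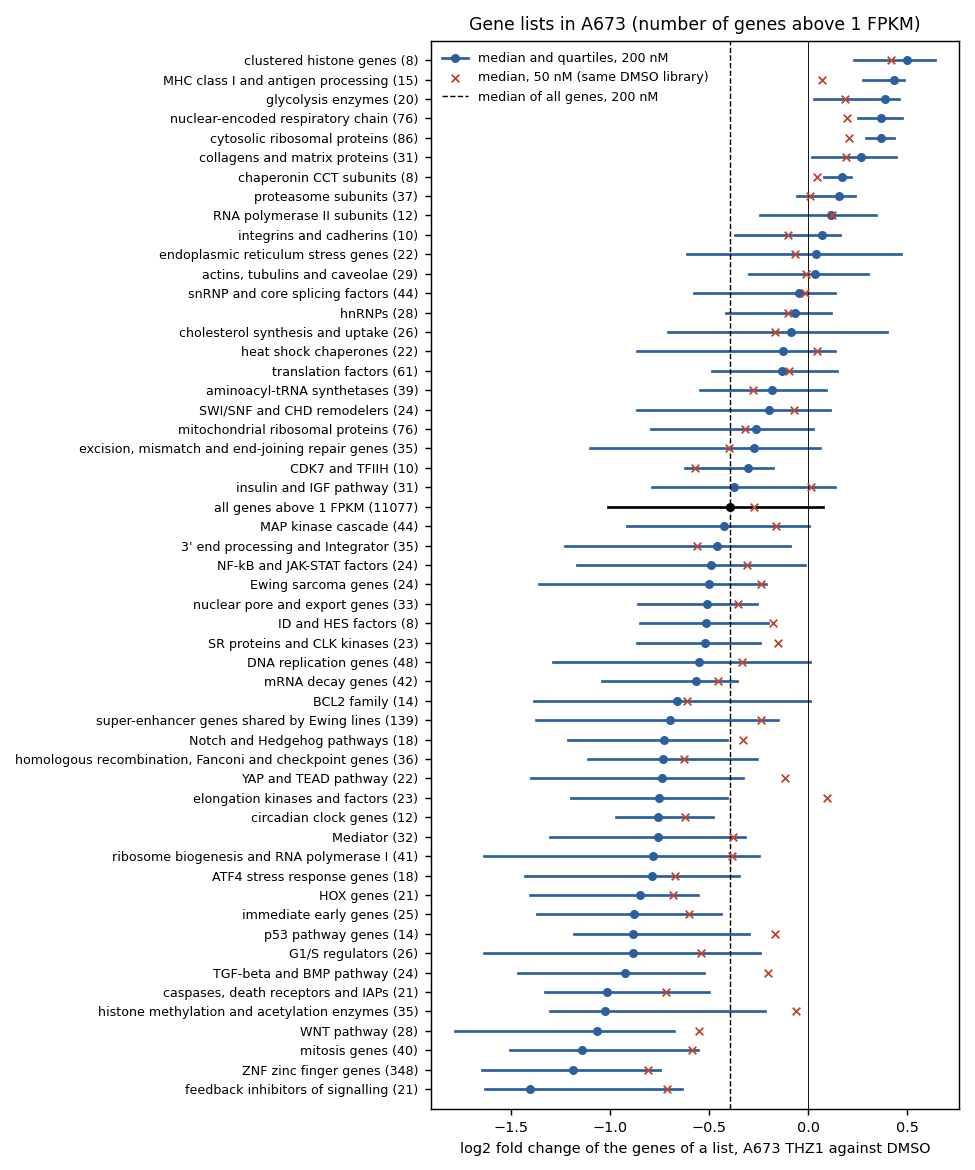
Each row is a gene list with the number of its genes above 1 FPKM in A673 DMSO, for lists with at least 8 such genes. Blue points and bars are the median and quartiles of the log2 fold change at 200 nM, and red crosses the median at 50 nM against the same DMSO library. The black row and the dashed line give all genes, with a median of -0.40. Zinc finger, mitosis, WNT and feedback genes lie on the left, ribosomal protein and respiratory chain genes on the right.

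The transcription machinery did not move as a block. CDK7 itself, the target of the compound, went from 41.1 FPKM in DMSO to 26.4 at 50 nM and 9.57 at 200 nM (-1.99). Of the 10 genes of the CDK7 complex and TFIIH, 2 fell and 7 held, with a median of -0.30 that turned to 0.06 when scaled by the 75th percentile. MNAT1, the assembly factor of the CDK7 kinase, was at 46.4, 44.1 and 36.5 FPKM (-0.34). Among 12 subunits of RNA polymerase II, 10 held and 1 fell, POLR2D, with 41.0, 18.5 and 14.6 FPKM (-1.43). Of 23 kinases and factors of elongation, 8 fell and 7 held (median -0.75, against 0.10 at 50 nM), a share of 34.8% that was 21.7% with the 75th percentile and 65.2% with the ribosomal protein genes. MEPCE, which caps and stabilises the 7SK RNA that restrains P-TEFb, fell from 34.4 to 6.16 and 5.19 FPKM (-2.52). BRD2, a reader of acetylated histones, was at 95.4 FPKM in DMSO, 194.5 at 50 nM and 75.8 at 200 nM, higher at the low dose and slightly lower at the high dose. Of 32 Mediator genes 11 fell (34.4%, or 56.2% when scaled to the ribosomal protein genes), with MED17 at 42.2, 22.2 and 10.1 FPKM (-1.96) and MED24 at 12.7, 12.2 and 15.1 FPKM (0.24).

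Zinc finger genes of the ZNF series, most of which encode DNA-binding repressors, formed the longest of the lists. Of 348 members above 1 FPKM, 210 fell (60.3%), 61 held and none rose, with a median of -1.18, against 50.3% of 374 in SKNMC. ZNF146 went from 85.3 to 22.7 and 10.5 FPKM (-2.91), and ZNF703, a corepressor, from 143.2 to 51.9 and 22.8 FPKM (-2.60). ZNF428 was at 35.5, 44.3 and 48.1 FPKM (0.43). Enzymes that methylate or acetylate histones had a median of -1.02 at 200 nM, with 18 of 35 fallen (51.4%, but 20% when scaled by the 75th percentile, near the 17.3% of all genes), and of -0.06 at 50 nM, with 5 of 35. At 50 nM 15.9% of the 11077 genes were at least 2-fold lower than in the same DMSO library. EED, a subunit of Polycomb repressive complex, went from 22.2 to 14.8 and 4.44 FPKM (-2.09), while the deacetylase gene HDAC1 was at 81.2, 114.9 and 128.5 FPKM (0.66). Of 24 chromatin remodelers 5 fell, CHD1, which acts at transcribed genes, among them, with 21.5, 9.33 and 2.08 FPKM (-2.87). SMARCA4, the ATPase of SWI/SNF, was at 60.8, 60.0 and 66.5 FPKM (0.13).

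Among genes that define Ewing sarcoma cells, FLI1 fell from 31.5 FPKM in DMSO to 14.95 at 50 nM and 4.26 at 200 nM (-2.63). Reads from FLI1 and from the part of it within the EWSR1-FLI1 fusion cannot be told apart here. EWSR1 held, with 133.6, 131.8 and 114.6 FPKM (-0.22). Of 24 genes on the Ewing sarcoma list, 8 fell and 12 held, with a median of -0.50. NR0B1, a corepressor induced by the fusion, went from 58.6 to 17.6 and 7.97 FPKM (-2.73), and NKX2-2, a homeobox target of the fusion, from 14.8 to 9.71 and 3.598 FPKM (-1.78). MEIS1, a TALE homeobox factor, went from 9.72 to 2.29 and 1.82 FPKM (-1.93), APCDD1, an inhibitor of WNT signalling, from 173.3 to 65.4 and 56.2 FPKM (-1.61) and BCL11B, a zinc finger factor, from 9.15 to 5.32 and 3.64 FPKM (-1.13). These genes were lowest at 200 nM, and MEIS1 and APCDD1 had lost most of their transcript by 50 nM. Others changed less. STEAP1, a protein of the cell surface, was at 174.6, 114.6 and 103.9 FPKM (-0.74), CCND1, which encodes cyclin D1, at 710.6, 460.6 and 504.7 (-0.49), and IGF2BP1, an RNA-binding protein, at 44.2, 51.2 and 38.6 (-0.19). CD99, the surface protein used to diagnose the tumour, was at 504.4, 646.1 and 762.7 FPKM (0.60). SOX5 was just below the limit in DMSO, at 0.986 FPKM, and had 1.70 at 200 nM. Of 139 genes beside super-enhancers shared by Ewing lines, 59 fell (42.4%, or 27.3% when scaled by the 75th percentile), 64 held and 2 rose, FOS and IER2, with a median of -0.70. That list was drawn up in the study from the chromatin of Ewing lines, A673 among them. Of its most abundant members, HSPA8, a constitutive chaperone, went from 1618 to 923.3 and 722.0 FPKM (-1.16), and PTMA, an abundant nuclear acidic protein, was at 771.0, 882.4 and 837.0 FPKM (0.12). HOX genes, which set positional identity, fell in 10 of 21 cases. HOXD13, which is high in Ewing sarcoma, went from 43.2 to 20.3 and 7.74 FPKM (-2.34), and HOXD9 was at 27.4, 19.6 and 16.9 FPKM (-0.67). ID4 and ID3, inhibitors of helix-loop-helix factors, fell, with log2 fold changes of -2.98 and -1.79, while ID2 was at 139.2, 181.2 and 97.9 FPKM (-0.50).

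Of 40 mitosis genes 23 fell (57.5%, or 32.5% when scaled by the 75th percentile), with a median of -1.14, and of 48 DNA replication genes 18 fell, with a median of -0.55. CCNB1, which encodes cyclin B1, went from 228.5 to 113.4 and 91.1 FPKM (-1.32), and its partner kinase CDK1 from 170.8 to 113.8 and 74.7 FPKM (-1.18). PTTG1, the securin, was at 84.0, 90.6 and 87.9 FPKM (0.07). Within replication, GINS1, a subunit of the replicative helicase, fell from 33.6 to 4.75 and 6.31 FPKM (-2.24), whereas PCNA, the sliding clamp, was at 337.8, 357.0 and 298.4 FPKM (-0.18) and TYMS, which makes thymidylate, at 261.3, 298.0 and 316.7 (0.28). Of 26 regulators of the G1/S step 12 fell. E2F5 went from 25.3 to 4.61 and 3.11 FPKM (-2.68), and CDK4 was at 162.6, 139.8 and 181.9 FPKM (0.16). In homologous recombination and its checkpoints 11 of 36 genes fell (30.6%, or 52.8% when scaled to the ribosomal protein genes), among them PALB2, the partner of BRCA2, which went from 9.35 to 1.63 and 0.562 FPKM (-2.73). FANCA was at 39.0, 47.9 and 39.1 FPKM (0.01).

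Survival genes divided within each family. In the BCL2 family 6 of 14 fell and 7 held. The anti-apoptotic members BCL2L1 and MCL1 went from 45.9 to 25.6 and 13.1 FPKM (-1.74) and from 92.9 to 49.1 and 36.8 FPKM (-1.31). The pro-apoptotic BAX was at 62.5, 52.5 and 68.9 FPKM (0.14) and BAD at 27.8, 28.4 and 36.0 (0.36). These members were named for their level or size of change, and the 14 genes were not divided by function. Of 21 caspases, death receptors and inhibitors of apoptosis 11 fell (52.4%, or 28.6% when scaled by the 75th percentile). DIABLO, which relieves caspases of their inhibitors, went from 58.7 to 28.2 and 24.4 FPKM (-1.23). BIRC5, which encodes survivin, was at 84.3, 63.4 and 78.7 FPKM (-0.10), and CYCS, the cytochrome c released in apoptosis, at 212.6, 208.1 and 250.4 (0.24). Of 14 p53 pathway genes 5 fell (35.7%, or 64.3% with a pseudocount of 0.1 and 21.4% when scaled by the 75th percentile). MDM2, the ligase that degrades p53, went from 18.7 to 8.14 and 6.76 FPKM (-1.35), and PPM1D, a phosphatase that acts on p53, was at 7.17 FPKM in DMSO, 9.93 at 50 nM and 1.30 at 200 nM (-1.83).

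Inhibitors that cells make to limit their own signalling had the lowest median of the lists shown, -1.41, with 13 of 21 fallen and none risen. This rank depends on the pseudocount, since with 0.1 their median was -1.61 and that of the ZNF genes -1.89. The phosphatase genes DUSP6 and DUSP5, which switch off ERK, went from 91.4 to 55.4 and 33.0 FPKM (-1.44) and from 19.99 to 7.84 and 2.73 FPKM (-2.49). ERRFI1, an inhibitor of the EGF receptor, went from 71.9 to 51.9 and 21.1 FPKM (-1.72). SMAD6, an inhibitor of BMP signalling, went from 54.3 to 24.2 and 16.8 FPKM (-1.63), and SMAD7, the matching inhibitor of TGF-beta signalling, held at 10.4, 12.97 and 11.7 FPKM (0.16). In SKNMC 9 of 20 of these inhibitors were at least 2-fold lower. Of 28 WNT pathway genes 15 fell, with a median of -1.07. The secreted inhibitor DKK1 went from 23.2 to 1.95 and 1.66 FPKM (-3.19) and the receptor FZD1 from 99.6 to 34.3 and 19.4 FPKM (-2.30). The receptor FZD4 was at 60.0, 48.6 and 15.1 FPKM (-1.92), and CTNNB1, which encodes beta-catenin, at 44.9, 61.8 and 47.3 (0.07). The TGF-beta and BMP pathway had 11 of 24 genes fallen at 200 nM and 2 of 24 at 50 nM, with medians of -0.93 and -0.20 against the same DMSO library. SMAD4, the shared mediator, went from 52.5 to 38.6 and 12.2 FPKM (-2.01), and the repressor TGIF1 from 40.2 to 32.4 and 9.70 FPKM (-1.95), so that both lost most of their transcript between the doses. The ligand TGFB1 was at 51.5, 56.5 and 55.1 FPKM (0.10). Of 22 genes of the YAP and TEAD pathway 9 fell, while YAP1 itself was at 58.9, 71.7 and 51.0 FPKM (-0.20). In the MAP kinase cascade 10 of 44 fell (22.7%, or 9.09% when scaled by the 75th percentile and 34.1% with a pseudocount of 0.1 or scaled to the ribosomal protein genes), with MAP2K2 at 84.3, 72.5 and 84.3 FPKM. In the insulin and IGF pathway 5 of 31 fell, where PIK3R1, a regulatory subunit of PI3 kinase, went from 12.3 to 3.10 and 1.58 FPKM (-2.37) and RHEB, the activator of mTOR, was at 101.0, 137.9 and 111.2 FPKM (0.14). In the NF-kB and JAK-STAT list 7 of 24 fell, with RELA at 39.2, 15.8 and 14.3 FPKM (-1.39) and JAK1 at 154.3, 211.6 and 171.8 FPKM (0.15). In the Notch and Hedgehog list 7 of 18 fell, with GLI2, a Hedgehog effector, at 9.502, 4.52 and 1.74 FPKM (-1.94). Among 12 clock genes 2 fell, a share of 16.7% that was 8.33% when scaled by the 75th percentile but 50% with a pseudocount of 0.1 or scaled to the ribosomal protein genes, and CRY1, a repressor of the clock, was at 21.96, 36.7 and 19.3 FPKM (-0.18).

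RNA processing genes ranged from lists that mostly held to lists with many falling members. Of 28 hnRNP genes 24 held and 1 fell, HNRNPDL, with 144.4, 43.7 and 61.5 FPKM (-1.22). Of 44 snRNP and core splicing genes 33 held and 4 fell, PRPF4 among them, with 29.7, 9.18 and 5.98 FPKM (-2.14). The medians of these lists were -0.06 and -0.05, and turned to 0.31 and 0.32 when scaled by the 75th percentile. Of 23 SR protein and CLK kinase genes 4 fell. SRSF3 was at 163.9, 63.5 and 67.9 FPKM (-1.26), and SRSF4 at 40.6, 36.5 and 10.8 FPKM (-1.82), the one already low at 50 nM and the other not. In 3' end processing and Integrator 14 of 35 genes fell (40%, but 17.1% when scaled by the 75th percentile, near the 17.3% of all genes), with the cleavage factor CSTF1 at 24.5, 8.16 and 2.14 FPKM (-3.02) and the poly(A) polymerase PAPOLA at 83.8, 108.3 and 90.3 (0.11). In mRNA decay 12 of 42 fell (28.6%, or 19% when scaled by the 75th percentile and 45.2% when scaled to the ribosomal protein genes), with EXOSC3, a subunit of the RNA exosome, at 41.8, 4.45 and 6.19 FPKM (-2.58). Among nuclear pore and export genes 6 of 33 fell (18.2%, or 9.09% when scaled by the 75th percentile and 42.4% when scaled to the ribosomal protein genes), with NUP62 at 48.4, 12.6 and 6.87 FPKM (-2.65).

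Most genes of the ribosome and of energy metabolism held. Of 86 genes of cytosolic ribosomal proteins, 83 held, none fell and none rose, and the median was 0.37, or 0.01 when scaled to these genes themselves. RPS19 was at 1558 FPKM in DMSO, 2019 at 50 nM and 2238 at 200 nM (0.52), and RPL10 at 1688, 1903 and 2139 (0.34). RPL7L1, which resembles a ribosomal protein and is no part of the mature ribosome, was lowest, at 95.3, 46.1 and 51.8 FPKM (-0.87). Of 41 genes of ribosome biogenesis and RNA polymerase I 15 fell (36.6%, or 63.4% when scaled to the ribosomal protein genes, with a median of -0.79), with RRS1, an assembly factor, at 43.6, 12.5 and 5.17 FPKM (-2.86) and FBL, the methyltransferase of ribosomal RNA, at 263.8, 312.6 and 265.4 (0.01). Translation factors fell in 7 of 61 cases, aminoacyl-tRNA synthetases in 5 of 39 and mitochondrial ribosomal proteins in 13 of 76. Of 76 nuclear-encoded genes of the respiratory chain 72 held and 1 fell, NDUFV3, with 17.5, 5.57 and 4.92 FPKM (-1.64). ATP5B, a catalytic subunit of ATP synthase, was at 711.8, 945.1 and 963.0 FPKM (0.44). Of 20 glycolysis genes 19 held, with GAPDH at 3256, 4315 and 4697 FPKM (0.53) and PKM at 988.2, 1164 and 1315 (0.41). The 1 that fell was PFKFB3, which makes an activator of glycolysis and is no enzyme of the chain itself, with 44.1, 17.5 and 10.5 FPKM (-1.97). Of 26 genes of cholesterol synthesis and uptake 5 fell and 1 rose, with FDPS, an early enzyme, at 173.1, 192.0 and 229.6 (0.41).

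Most subunits of the proteasome and of a chaperonin held. Of 37 proteasome subunits 33 held and 1 fell, PSMD5, an assembly chaperone, with 25.5, 12.7 and 8.85 FPKM (-1.43). All 8 subunits of the chaperonin CCT held. The medians of these lists, 0.15 and 0.17, turned to -0.20 and -0.19 when scaled to the ribosomal protein genes. Among 22 heat shock chaperones 5 fell (22.7%, or 13.6% when scaled by the 75th percentile), with the co-chaperone DNAJB1 at 48.0, 14.3 and 7.94 FPKM (-2.45) and HSP90AA1 at 601.9, 677.7 and 846.6 (0.49). Among 22 genes of endoplasmic reticulum stress 5 fell. XBP1, the transcription factor of that response, went from 30.3 to 4.66 and 2.43 FPKM (-3.19), whereas the folding enzyme PDIA3 was at 265.8, 343.9 and 400.9 FPKM (0.59). Of 18 genes of the ATF4 response 8 fell, DDIT3 most steeply, with 13.7, 0.915 and 0.969 FPKM (-2.90). ATF4 was at 256.4, 107.0 and 165.9 FPKM (-0.63), lowest at 50 nM.

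Genes of the cell surface, matrix and cytoskeleton showed no member at least 2-fold lower in 4 lists. Of 31 collagen and matrix genes 29 held, with FN1, which encodes fibronectin, at 550.2, 732.1 and 735.5 FPKM (0.42) and SPARC at 430.8, 440.8 and 502.9 (0.22). Of 29 actin, tubulin and caveola genes 27 held, with CAV1 at 1577, 1389 and 1470 FPKM (-0.10). Of 15 genes of MHC class I and antigen processing 13 held, with B2M, the invariant light chain, at 2371, 3115 and 3576 FPKM (0.59). Of 10 integrin and cadherin genes 8 held, and CDH11, a mesenchymal cadherin, was lowest, at 63.3, 54.0 and 32.2 FPKM (-0.95). With the ribosomal protein scaling the medians of the matrix, cytoskeleton and integrin lists, 0.27, 0.03 and 0.07, turned to -0.05, -0.32 and -0.27. Clustered histone genes, whose transcripts lack a poly(A) tail in the main, were mostly at or below 1 FPKM. Of 71 only 8 were above it, 6 of which held and none fell. Of the 13 mitochondrially encoded mRNAs only MT-ATP6 was above 1 FPKM in A673 DMSO, at 76.4, 77.4 and 77.1 FPKM. The other 12 were listed at or below 1 FPKM, and in SKNMC DMSO too only 1 was above it. The listed levels of these mRNAs are uncertain. Whether they reflect the cells or the alignment and counting was not tested.

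The share of falling genes varied with the level, the span and the number of exons of a gene. By the DMSO level, 16.2% of 1590 genes between 1 and 3 FPKM fell, 32.1% between 3 and 10, 33.5% between 10 and 30, 18.3% between 30 and 100, 4.58% between 100 and 300 and 0.474% of 211 genes above 300 FPKM. The added 1 limits the size of a fall in the lowest class. Since the DMSO value enters both the class and the fold change, the same genes were also divided by their level in SKNMC DMSO, and the shares were 22.2%, 32.6%, 30.8%, 16.8%, 4.53% and 1.61%. Among genes above 300 FPKM in A673 DMSO, 1 of 211 fell, and it was HSPA8. By span, 24.9% of 527 genes of up to 3 kb fell, 27.8% between 3 and 10 kb, 29.7% between 10 and 30 kb, 25% between 30 and 100 kb, 19.0% between 100 and 300 kb and 8.36% of 359 genes above 300 kb. By exons of the longest annotated transcript, known for 98.4% of the genes, the share declined from 40.1% of 399 single-exon genes over 36.5% with 2 and 33.3% with 3 exons to 15% of 1311 genes with more than 20 exons. Within the class of 10 to 30 FPKM, 59 of 110 single-exon genes fell (53.6%) and 98 of 475 genes with more than 20 exons (20.6%). Between 30 and 100 FPKM these shares were 40.6% and 13.3%. In SKNMC the share was 35% with 1 exon, 38.2% with 2, 38.2% with 3 and 12.5% with more than 20 exons, so that genes with the most exons were again lowest but single-exon genes were not highest. Of the genes that rose, 5 had 1 exon. Among 258 lincRNA genes 17.8% fell, with a median of -0.47, and among 10819 protein-coding genes 25.4% with a median of -0.39. On the X chromosome 15.2% of 376 genes fell, while the autosomes ranged from 21.3% to 28.9%.

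**Figure D4:**
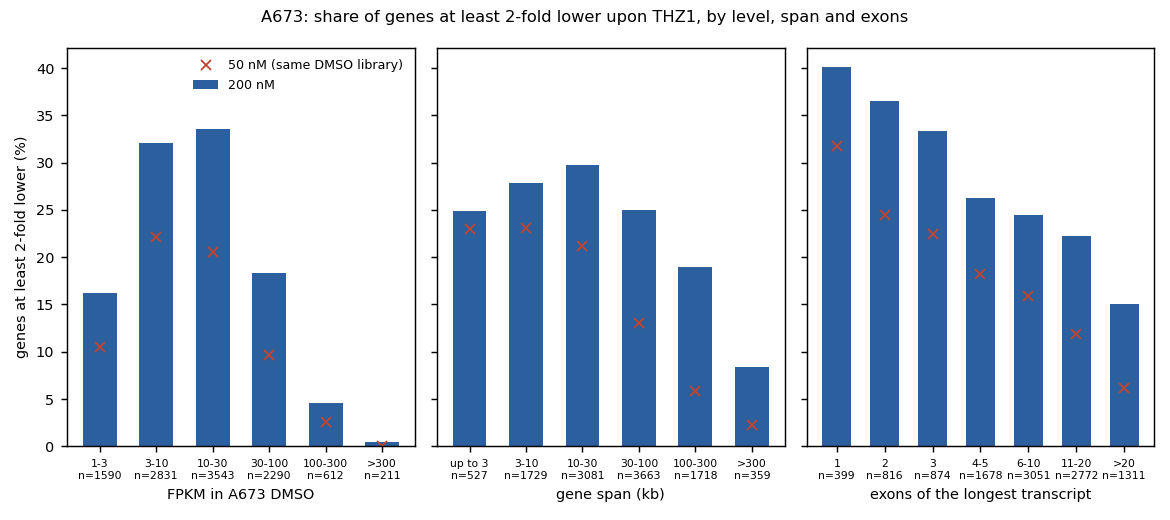
Bars give the percentage of A673 genes at least 2-fold lower at 200 nM, by FPKM in DMSO, by gene span in kb and by exons of the longest transcript, with the number of genes under each bar. Red crosses give the same at 50 nM against the same DMSO library. The share is lowest for genes above 300 FPKM, above 300 kb and with more than 20 exons, and highest for single-exon genes, at 40.1%.

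Of the 11077 genes, 10574 were also above 1 FPKM in SKNMC DMSO, and the size of the change in A673 went with that in SKNMC. Of 512 such genes that fell at least 4-fold in A673, 500 were at least 2-fold lower in SKNMC (97.7%), 1 held and 1 was at least 2-fold higher. Of 2200 genes that fell between 2-fold and 4-fold in A673, 75.5% were at least 2-fold lower in SKNMC, and of 1640 genes between 1.5-fold and 2-fold lower, 32.9% were. Of 6046 genes that held in A673, 4440 held in SKNMC (73.4%) and 330 were at least 2-fold lower there (5.46%). Over all 10574 genes, 28.7% were at least 2-fold lower in SKNMC. Of 11 genes that rose in A673, 7 rose in SKNMC and 2 held. Conversely, 3 genes that changed at least 2-fold in A673 changed at least 1.5-fold in the other direction in SKNMC, namely EGR1, FOSL1 and NEAT1. FOSL1, another AP-1 subunit, went from 19.7 to 4.37 and 3.07 FPKM in A673 (-2.35), and from 1.42 to 1.66 and 4.34 FPKM in SKNMC (1.15). NEAT1, the lincRNA of nuclear paraspeckles, went from 44.9 to 19.0 and 18.5 FPKM in A673 (-1.23), and from 13.03 to 12.1 and 26.2 FPKM in SKNMC (0.96). With 1 library a condition, no test of these differences could be made.

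**Figure D5:**
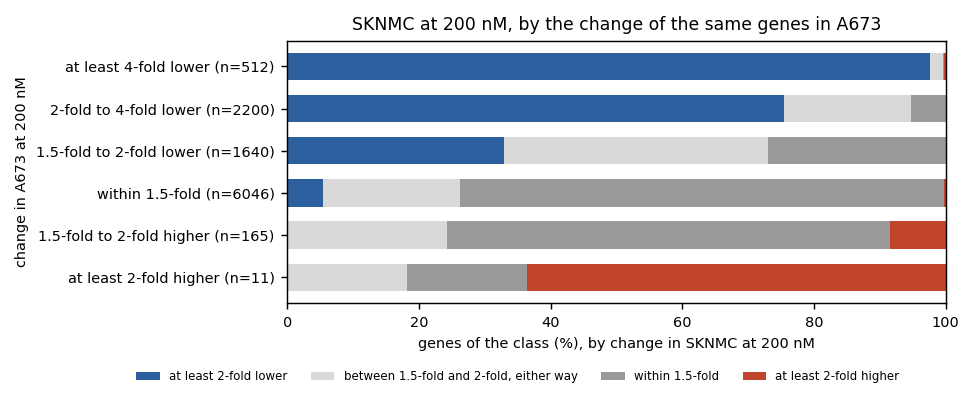
Each bar is a class of genes by their change in A673 at 200 nM, for genes above 1 FPKM with DMSO in both lines, and its colours give the percentage of the class by the change in SKNMC at 200 nM against SKNMC DMSO. The blue part, at least 2-fold lower in SKNMC, shrinks from 97.7% of the 512 genes that fell at least 4-fold in A673 to 5.46% of the 6046 that held.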

How the data were processed

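RNA from A673 and SKNMC cells was sequenced as paired-end TruSeq libraries, 1 for each condition. According to the study's methods the authors aligned the reads to hg19 with STAR and estimated FPKM with StringTie, while the submitters' processing notes name STAR, Cufflinks and GRCh37. The authors deposited FPKM values per Ensembl gene together with log2 fold changes of each THZ1 library, and the latter were not used. The title of the table speaks of average expression, but the labels give 1 library per condition, and each column was treated as 1 library. FPKM gives no read depth, so no counting interval could be given.

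From the FPKM columns log2((FPKM + 1)/(FPKM + 1 of DMSO)) was computed for genes above 1 FPKM in A673 DMSO, with Python 3.11.15, numpy 2.4.6 and pandas 2.3.3. Thresholds were 2-fold, 4-fold and 1.5-fold. EEF1A1 is listed at 0 in both SKNMC THZ1 libraries and is not described there. Exons came from GENCODE release 44 on GRCh37, promoters from RefSeq (75.7% of genes matched). Named genes were the 12 lowest above 10 FPKM, those that rose, the 8 most abundant within 0.1 of zero, the 3 most abundant and the extremes above 5 FPKM of each list, and 13 genes of the study; some were left out of the text, a few of them not reported here, and JUN, FOSL1, NEAT1 and 5 genes below the filter were chosen after their values were seen. The genes, lists and rules were chosen with earlier results of these data known. The fold change and the counts of lower and higher genes were run on simulated data with planted folds, which checks their arithmetic only. The lists, scalings, strata and promoters were not tested in that way. Alternatives were another pseudocount, other filters and 3 scalings.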

Additional observations from a re-analysis of the deposited data

Results flagged for a closer look

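There were 3 genes above 1 FPKM in both DMSO libraries that moved in opposite directions in the 2 lines at 200 nM, by at least 2-fold in A673 and at least 1.5-fold in SKNMC. The log2 fold change of EGR1 was 1.98 in A673 and -0.67 in SKNMC, that of FOSL1 was -2.35 and 1.15, and that of NEAT1 was -1.23 and 0.96. The differences were not tested, since each line has 1 library a condition.

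Of 16343 genes at or below 1 FPKM in A673 DMSO, which the comparison left out, 256 were above 1 FPKM at 200 nM and 55 were at least 2-fold higher. The 5 with the largest log2 fold change, chosen after their values were seen, are given with their levels in DMSO, at 50 nM and at 200 nM. ANKRD30BL went from 0.356 to 25.9 and 52.0 FPKM (5.29), and in SKNMC from 0.495 to 26.0 and 60.9 FPKM (5.37). The lincRNA gene CTD-2105E13.13 went from 0.362 to 7.77 and 15.3 FPKM (3.59), and FAM166A from 0.135 to 3.31 and 9.76 FPKM (3.24). In SKNMC these were at 0.204 and 0.049 FPKM in DMSO and at 8.64 and 5.22 FPKM at 200 nM. The levels of both are uncertain, since RPL28 and TUBB4B overlap them on the opposite strand. HIST1H3G went from 0.154 to 2.14 and 5.45 FPKM (2.48) and was at 0.0555 FPKM at 200 nM in SKNMC. DNAJC25-GNG10, a read-through of neighbouring genes, was at 0.374, 0.435 and 6.53 FPKM (2.45). In SKNMC it was at 2.06, 0.258 and 2.07 FPKM (0.005), so the 200 nM level was not above DMSO by any fold counted here.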

How the results depend on the processing

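With 1 library a condition, no library could be left out. No paired analysis was possible because each group has 1 library and no test was made. The number of fallen genes stayed within 1.5 times 2799 under all 9 alternatives, between 1915 and 3849. The number of genes that rose, 14 in the report, was 39 with a pseudocount of 0.1, 69 with no filter, 51 with a mean of both libraries above 1 FPKM, 9 above 5 FPKM in DMSO, 112 when scaled by the 75th percentile and 5 when scaled by the ribosomal protein genes. The count of genes within 1.5-fold was 22393 with no filter, where most genes are near 0 FPKM. The median, -0.40 in the report, was 0.00 with no filter, -0.072 with the 75th percentile and -0.69 with the ribosomal protein genes. Of 98 named genes that changed at least 2-fold, 0 reversed under any alternative computed; 21 of 877 values no longer reached 2-fold. Of the shares of fallen genes in 54 lists, 17 changed by more than 1.5 times with the 75th percentile, 20 with the ribosomal protein genes and 5 with a pseudocount of 0.1. Which scaling is nearest to RNA per cell cannot be told apart without an added standard, and no gene here has a replicate.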

Other observations

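The clustered histone genes, which encode the core and linker histones of S phase, were mostly below the limit of 1 FPKM in A673 DMSO and are described here by their levels. Of 71 listed genes, 56 had a higher FPKM at 200 nM than in DMSO and 5 a lower one. On the log2(FPKM + 1) scale 14 were at least 2-fold higher and none was at least 2-fold lower. Of all 16343 genes at or below 1 FPKM in A673 DMSO, 63 of them clustered histone genes, 256 were above 1 FPKM at 200 nM. At least 2-fold higher were 55 of these 16343 genes. Of the 11077 genes above 1 FPKM in DMSO, 3278 were higher at 200 nM and 14 rose, with no clustered histone gene among the 14. How many of the 16343 genes were higher by any amount was not counted. The 56 of 71 histone genes therefore have no background of like level beside them. The summed level of the 71 histone genes was 64.8 FPKM in DMSO, 102.9 at 50 nM and 141.4 at 200 nM, and 31 of them were above 1 FPKM at 200 nM against 8 in DMSO. In SKNMC the sums were 202.9, 217.2 and 241.2 FPKM. Transcripts of these genes are mostly not polyadenylated, and the part that the library preparation played in their level was not tested.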
